A study of Gossypium hirsutum with 6 samples.

Results

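Between 21 and 24 days post-anthesis (dpa), developing fibers of Upland cotton, *Gossypium hirsutum* cv. TM1, were already depositing secondary cell wall (SCW). Few transcripts with strong signal on the arrays changed at least 2-fold over this interval. The balance of higher and lower probes depended on how strong signal was defined. In the bright class, one of 3 equal classes by mean signal, 12 were higher (0.304%) and 65 lower (1.64%) at 24 dpa. Among probes above the buffer spots in every scanner file of both stages, 68 were higher and 61 lower. That second filter requires signal at 24 dpa itself and so can remove probes that fell. It kept 11 of the 12 higher bright probes and 31 of the 65 lower ones. The comparison covered every cotton probe, whose row name starts with GA_, with a deposited value at all 6 stages. There were 11858 such rows among 12262 named rows of the series. For each of them the log2 ratio to 5 dpa at 21 dpa was subtracted from that at 24 dpa, so that the 5 dpa reference cancels.

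The series followed the transcriptome of fibers from greenhouse plants at 8, 10, 14, 17, 21 and 24 dpa on 2-colour oligonucleotide arrays. Both stages compared here were the same untreated cultivar, and each was given by the authors as 1 profile relative to fibers of 5 dpa. The deposited values thus hold no replicates, although the authors hybridized several arrays and tested the genes for change on them. Here no p-value was computed, and a 2-fold difference, 1 on the log2 scale, was used as a threshold of size only. The RNA was from bulk fiber, in which fewer fibers and less RNA per fiber cannot be told apart.

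A cotton fiber is a single, unbranched cell of the seed coat. It first elongates within a thin primary cell wall (PCW) and then lays down a thick SCW of nearly pure cellulose. That cellulose is spun at the plasma membrane by cellulose synthase complexes, with UDP-glucose as the substrate, and sucrose synthase is one enzyme that makes UDP-glucose from sucrose. Growth genes such as expansins act mainly while the primary wall still yields.

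Signal strength came from the 12 scanner files, which hold 1 dye of 1 array each. These files cover 7 arrays, and both files of the 24 dpa sample are of the same array. The authors' profiles pooled more hybridizations than these, so the files show only part of the data behind the deposited values. One file of the 24 dpa sample was dim. Its median corrected signal was 34.4, against 165 to 592 in the other 11 files, and 47.3% of the rows with signal in it exceeded the signal of the buffer spots, against 71.0% to 93.4% in the others. Duplicate spots of a probe in it differed by a median of 0.42 on the log2 scale, against 0.17 to 0.26 elsewhere. The rows were therefore split by their mean log2 signal over all 12 files into 3 classes of equal size, called dim, middle and bright here, which are reported separately. Which stage each dye held is not settled by the labels, so the scanner signals are given without a direction. In the bright class the dye ratio of the 24 dpa array had an absolute Pearson correlation of 0.85 with the deposited 24 dpa values. Protease P27 (06430), for example, at 4.96 at 24 dpa, had a signal of 3129 in the dim file and 688 in the other. Sucrose synthase (10590), at -2.68, had 89.2 and 3237. A weak signal in the dim 24 dpa file may therefore also accompany a low 24 dpa value, which was not tested.

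Over all rows, 920 probes were at least 2-fold higher at 24 than at 21 dpa (7.76%) and 673 were at least 2-fold lower (5.68%). The median difference was -0.05 and the SD was 0.86 on the log2 scale, with a range from -7.03 to 10.56. Both counts, and the balance between them, changed with signal. In the dim class 841 probes were higher and 436 lower, and in the middle class 67 were higher and 172 lower. In the bright class of 3953 probes only 12 were higher (0.304%, exact 95% interval 0.157 to 0.530%) and 65 lower (1.64%, 1.27 to 2.09%), where the intervals cover counting error only. The SD of the differences fell in the same order, from 1.31 through 0.52 to 0.38. Higher probes thus outnumbered lower ones in the dim class, while lower probes outnumbered higher ones in both other classes.

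**Figure D1:**
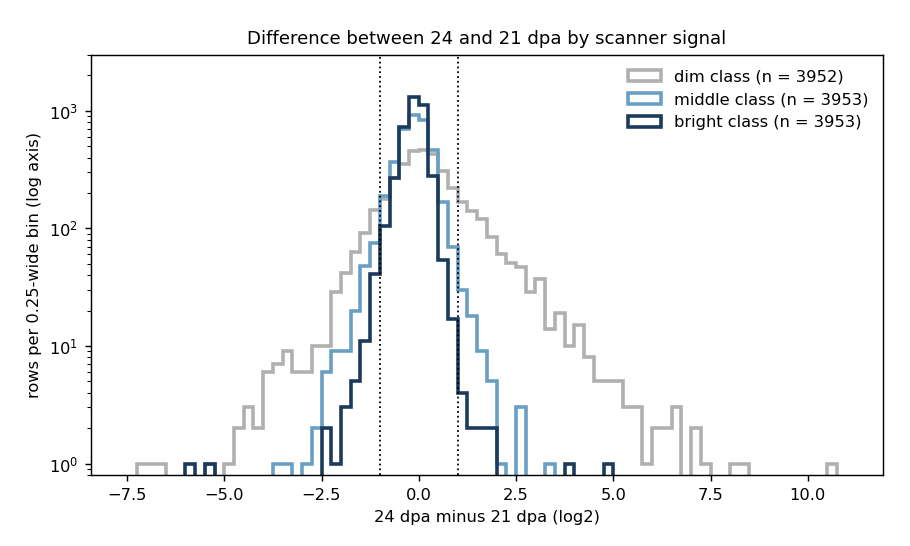
Number of rows (log axis) by the 24 minus 21 dpa difference (log2, bins 0.25 wide) in the dim, middle and bright class of scanner signal, with dotted lines at a 2-fold change. The dim class spreads widely and leans to higher values at 24 dpa, and the bright class, with an SD of 0.38, lies almost wholly between the dotted lines.

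The probes that were higher at 24 dpa were mostly weak ones. Their median signal stood at percentile 9.19 of all rows, that of the lower probes at percentile 22.8, and that of the probes within 2-fold at percentile 55.7. Of the 920 higher probes, 68 exceeded the buffer signal in all 4 files of the 21 and 24 dpa samples, and 324 exceeded it in none of these files. Of the 673 lower probes 61 passed in all 4 files. This filter requires signal at 24 dpa too, so it can remove probes that fell. Among the 5212 rows above the buffer signal in all 4 files the counts were thus 68 higher and 61 lower, or 2.48% changed, against 22.03% of the remaining 6646 rows.

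Position on the array moved with the result as well. The spots are printed in blocks that form 12 rows and 4 columns. In block rows 1 to 10 the share of probes lower at 24 dpa was 3.98% and the share higher 6.66%, while in block rows 11 and 12 these shares were 15.01% and 13.8%. Signal was weakest in the same place, with a median of 18.2 in the dim 24 dpa file in block row 12 against 28.8 to 45.7 in the other block rows. In the bright class, block rows 1 to 10 held 7 higher and 36 lower probes of 3523 (0.199% and 1.02%), and block rows 11 and 12 held 5 higher and 29 lower of 430 (1.16% and 6.74%). Lower probes outnumbered higher ones among bright probes in both places. The part of array position and of the dim file in these counts was not tested.

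**Figure D2:**
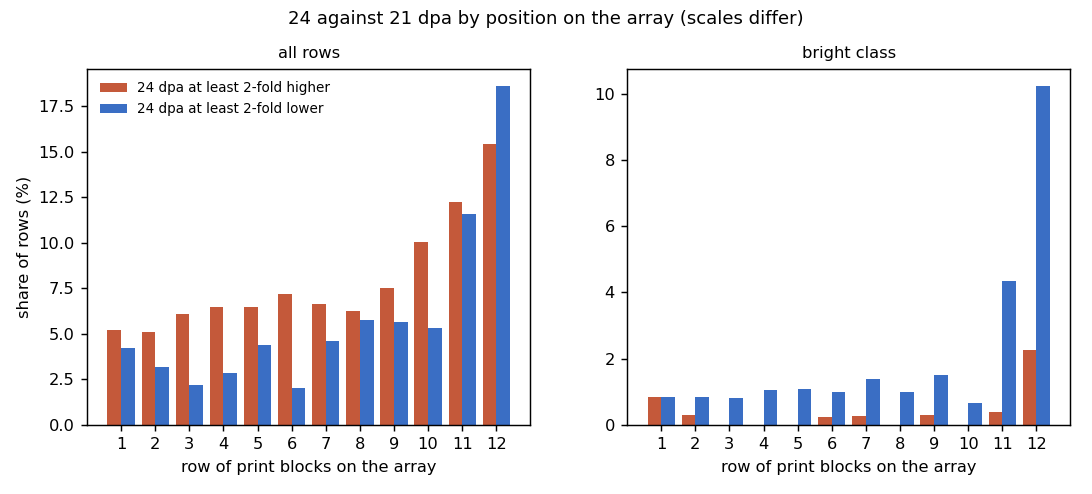
Share of probes (%) at least 2-fold higher or lower at 24 than at 21 dpa in each of the 12 rows of print blocks, for all rows and for the bright class (bars from 0, scales differ). The shares of lower probes are largest in block row 12, at 18.6% of all its probes and 10.2% of its bright probes.

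The interval from 21 to 24 dpa can be set beside the other steps of the series. Over all rows 13.4% of probes changed at least 2-fold between 21 and 24 dpa, against 2.83% to 6.53% in the other 4 steps. In the dim class the share was 32.3%, against 15.3% from 17 to 21 dpa. Among bright probes the order was much closer, with 77 changed probes from 21 to 24 dpa and 75 from 17 to 21 dpa. Without block rows 11 and 12 the bright probes gave 43 changes from 21 to 24 dpa (1.22%) and 64 from 17 to 21 dpa (1.82%), so that the later step was then the smaller one. At 21 against 17 dpa, 9 bright probes were higher and 66 lower. From 14 to 17 dpa, by contrast, 51 bright probes were higher and 0 were lower. Steps that share a stage are not independent of each other.

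**Figure D3:**
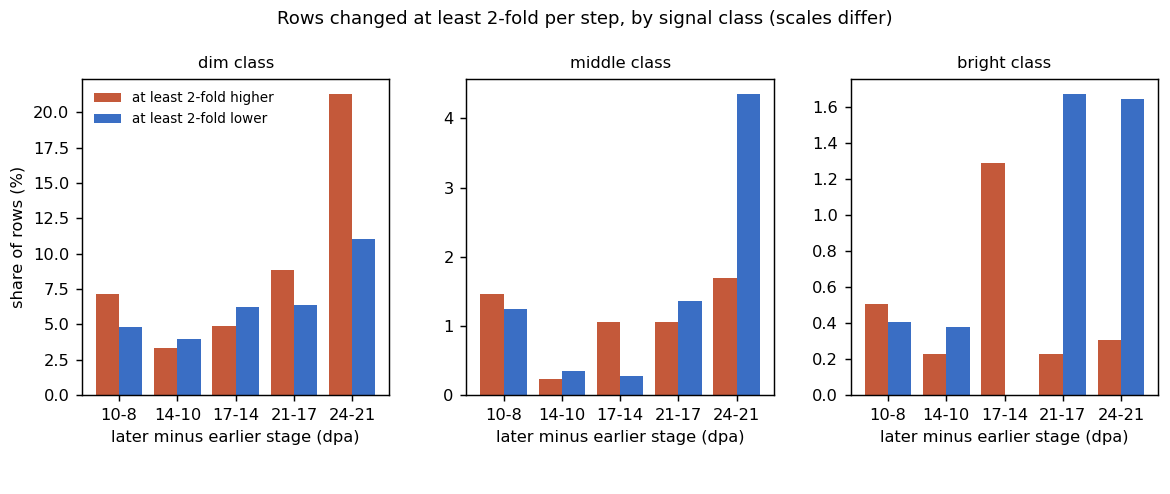
Share of probes (%) at least 2-fold higher or lower at the later of each pair of neighbouring stages, by class of scanner signal (bars from 0, scales differ between panels). The 24 minus 21 dpa step stands above the others in the dim and middle classes, and beside the 21 minus 17 dpa step in the bright class.

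For the bright probes that were lower at 24 dpa, the median stayed near the 5 dpa level until 21 dpa, though single probes departed from it. Over the 6 stages in order their median log2 ratio to 5 dpa was 0.14, 0.12, 0.05, -0.02, -0.26 and -1.51. Of these 65 probes, 29 were within 2-fold of 5 dpa at 21 dpa and at least 2-fold below it at 24 dpa, 16 were at least 2-fold below it at both stages, and 13 stayed within 2-fold at both. Only 7 had been at least 2-fold above 5 dpa at 21 dpa. For 63 of the 65 the 24 dpa value was the lowest of the 6 stages, a description that follows in part from how they were chosen. All 65 exceeded the buffer signal in both 21 dpa files, 64 did so in the brighter 24 dpa file and 31 in the dim one. In block rows 1 to 10, and above the buffer signal in all 4 files, 15 lower and 7 higher bright probes remained, of 3147.

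The 24 dpa profile was also wider than the 21 dpa profile. In the bright class the SD of the log2 ratios to 5 dpa was 0.68 at 21 dpa and 0.85 at 24 dpa, and over all rows 0.77 and 1.06. When the 24 dpa profile was scaled to the SD of the 21 dpa profile, 9 bright probes passed the threshold upward and 21 downward, in place of 12 and 65. Scaling by the SD of the bright class alone gave 9 and 25. More of the bright probes were lower than higher under each of these scales.

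**Figure D4:**
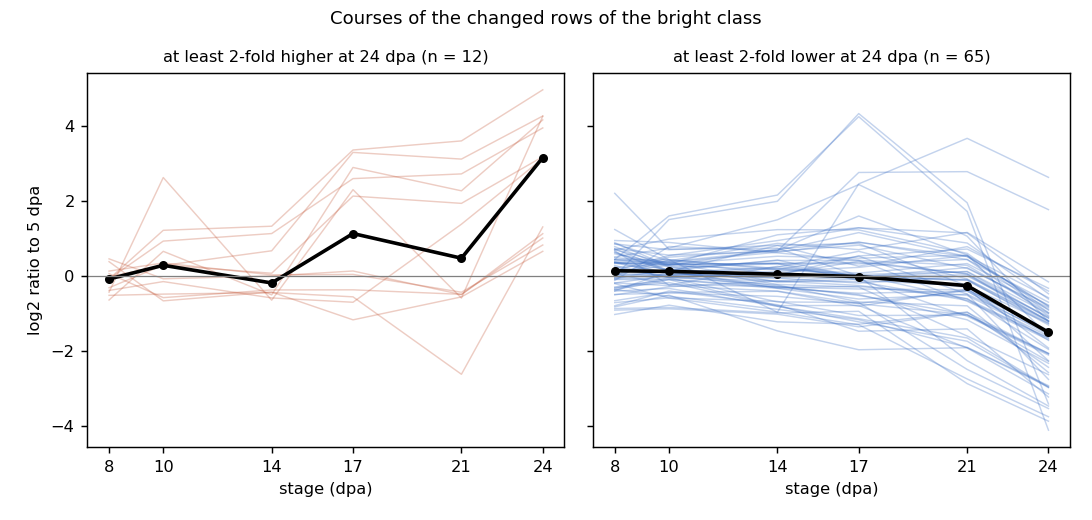
Log2 ratio to 5 dpa at each stage (dpa) for the probes of the bright class that were at least 2-fold higher (n = 12) or lower (n = 65) at 24 than at 21 dpa, one thin line per probe, with the median in black. The median of the lower probes lies between -0.26 and 0.14 until 21 dpa and at -1.51 at 24 dpa, while several higher probes had already risen by 17 dpa.

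The 12 bright probes that were higher at 24 dpa fell into different courses. Of these, 6 were at least 2-fold above 5 dpa at both stages, 3 crossed from within 2-fold to above it, 2 stayed within 2-fold and 1 went from below to above. At 17, 21 and 24 dpa their median log2 ratio was 1.13, 0.47 and 3.16. For all 12 the 24 dpa value was the highest of the 6 stages.

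Descriptions were at hand for few rows, since the probes carry only contig and EST numbers. They were taken from the annotation of Set 1. The study selected these genes by their distance between TM1 and Pima cotton at 17 and 24 dpa, among genes regulated during fiber development in both. The TM1 values of that selection are those used here, so that their directions are not independent evidence. Of 124 Set 1 probes with values, 20 were at least 2-fold higher and 13 lower, against the 7.76% and 5.68% of all rows given above. In the bright class 2 of 72 Set 1 probes were higher and 2 were lower (2.78% each), against 0.304% and 1.64% of all bright probes. The other changes lay mainly in the dim class, where 16 of 29 were higher and 7 lower (55.2% and 24.1%), against 21.3% and 11.03% of all dim probes. Of the 74 with a description, 11 were higher and 9 lower. The 58 probes in a gene list held 6 higher and 4 lower (10.3% and 6.90%), near the 7.76% and 5.68% of all rows. The counts of single lists below are to be read against these shares. Differences under 2-fold can also turn sign when the 24 dpa profile is scaled to the 21 dpa profile, as shown at the end.

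Both bright described probes that were higher had been well above their 5 dpa level since 17 dpa. Protease P27 (probe 06430) had log2 ratios to 5 dpa of -0.08, 1.22, 1.33, 3.36, 3.60 and 4.96 at 8, 10, 14, 17, 21 and 24 dpa. Its difference between 24 and 21 dpa was 1.36, or 2.57-fold. The probe was above the buffer signal in all 12 files, with corrected signals of 435 and 9497 in the 2 files of the 21 dpa sample and 3129 and 688 in those of the 24 dpa sample. Another probe of the same assembled transcript (06002, chosen after its values were seen) went from 2.55 to 3.54, a difference of 0.98, just under the threshold. A second P27 transcript (06424) did not follow, with 3.05 at 21 dpa and 2.87 at 24 dpa. A GTP-binding protein (07089), of the class of molecular switches that steer membrane traffic and signalling, had values of -0.02, 0.28, 0.67, 3.29, 3.12 and 4.27 in the same order of stages. Its difference was 1.15, or 2.22-fold.

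The other pair of bright described probes was lower. Omega-3 fatty acid desaturase (12708), the enzyme of the endoplasmic reticulum that makes linolenic from linoleic acid, had log2 ratios to 5 dpa of 0.49, 0.37, 0.05, -0.01, -2.26 and -3.47 from 8 to 24 dpa. It was thus at its 5 dpa level until 17 dpa, and lower at both late stages, by a further 1.21 at 24 dpa. A protein with an NPH3 domain (00949), named after a blue-light signalling protein of Arabidopsis, had -0.87, -0.94, -2.87 and -3.87 at 8, 17, 21 and 24 dpa. The difference of -1.003 lay on the threshold itself. In the dim 24 dpa file the corrected signals of both probes, 9.95 and 9.27, were not above the buffer signal, while in the other 3 late files they were between 154 and 1528. None of these 4 probes, higher or lower, lies in block rows 11 and 12. After scaling to the SD of the 21 dpa profile over all rows, P27 had a difference of -0.0066, the GTP-binding protein -0.028 and the NPH3 protein 0.066, and the desaturase -0.25. That SD is over all rows, and the dim class widens it. Scaled to the SD of the bright class alone, which was tried after seeing the data, the differences were 0.38, 0.30, -0.23 and -0.52, so that all 4 kept their sign and none reached 2-fold.

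Both Set 1 probes for cellulose synthesis differed by less than 2-fold and had differences above 0, while 2 control features named after cellulose synthases, described next, were over 2-fold higher. The catalytic subunit of cellulose synthase (02992) is annotated with Arabidopsis CESA3, 1 member of the cellulose synthase family. It had values of 0.46, 0.22, 0.31, 0.11, 0.14 and 0.43 from 8 to 24 dpa, and the difference was 0.29. A second entry of the same probe number gave 0.38. The membrane-anchored endo-1,4-beta-glucanase (10639), of the KORRIGAN type that works beside cellulose synthase, was at 0.28 at 21 dpa and 0.88 at 24 dpa, a difference of 0.60. For the bright class as a whole the median difference was -0.09 and 62.4% of probes were below 0.

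The array also carries control features outside the 11858 rows, and among them are 3 named after fiber genes. All 3 were at least 2-fold higher at 24 dpa. GhCesA-1, named after a cotton cellulose synthase, went from 3.81 to 7.30, but its corrected signal was weak, between -6.19 and 78.7 in the late files. GhCesA-2 was above the buffer signal in all 12 files and went from 0.36 at 21 dpa to 1.71 at 24 dpa, while it had stayed between 0.26 and 0.54 from 8 to 17 dpa. FbL2A, named after a late fiber gene, had 1.19, 4.88 and 7.83 at 17, 21 and 24 dpa. Other control features set the scale for such values. The 12 features with A-numbered names had a median difference of -0.0027 and a range from -1.01 to 1.18, with 1 at least 2-fold higher and 2 lower, all below the 1.35 of GhCesA-2. Among 5 features named after transgenes 2 were at least 2-fold higher and 1 lower, with differences from -1.54 to 7.63. Of these, aaacC1 was above the buffer signal in no late file, while GUS, with a difference of 2.86, was above it in 3 of 4. The 4 chlorophyll a/b-binding protein features, labelled as leaf controls, had differences from -1.03 to 0.93, with 0 at least 2-fold higher and 1 lower. The words listed for photosynthesis, seed storage and cell division matched 0 Set 1 descriptions. Of other tissues only leaf could thus be read, from these 4 features, each above the buffer signal in 3 of 4 late files.

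In sucrose and sugar metabolism 0 of 3 probes changed at least 2-fold, with a median difference of -0.21. Both sucrose synthase probes stayed low. One (10590) was at -0.20 early on, at 8 dpa, and at -1.97, -2.85 and -2.68 by 17, 21 and 24 dpa, and the other (00620) was at -2.04 and -2.41 at 21 and 24 dpa. Their second entries gave differences of -0.04 and -0.13, against 0.16 and -0.37. A probe similar to cytosolic glyceraldehyde-3-phosphate dehydrogenase of glycolysis (03870) went from 1.61 to 1.40.

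Of the wall loosening and remodelling genes 0 of 5 changed at least 2-fold, with a median of 0.10. Expansin 1 (00974), which loosens the wall during growth, had 1.20 at 21 dpa and 1.06 at 24 dpa. Xyloglucan endotransglycosylase (12158), which cuts and rejoins xyloglucan chains, had 1.80 and 2.06. A monocopper oxidase (12232) had -0.73 and -0.63. Of 2 beta-galactosidases one (04269) went from -0.82 to -0.17, a difference of 0.65, the largest of this list, and the other (03757) from -0.12 to -0.19, and neither is in the bright class.

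Cytoskeleton, water channel and lipid genes all had differences below 0, most of them small. For the cytoskeleton 0 of 3 probes changed at least 2-fold and the median was -0.33, against -0.09 for all bright probes. Tubulin beta-1 (11289) went from 1.08 to 0.80, a beta-tubulin (07246) from 1.34 to 1.01, and actin (04501) from -0.42 to -0.98. The last 2 of these lie in block rows 11 and 12. Among water channels and transporters 0 of 5 changed at least 2-fold, and the median was -0.44. The plasma membrane aquaporin PIP2-2 (12638) went from 0.79 to 0.30, the tonoplast channel ZmTIP4-4 (06183) from 1.68 to 1.24 and the tonoplast channel bobTIP26-1 (10986) from -0.28 to -0.47. An ABC transporter measured by a pair of probes of 1 assembled transcript had differences of -0.52 (05134) and -0.29 (03668).

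Of 6 probes for very-long-chain lipids, the cuticle and lipid transfer, the omega-3 desaturase alone passed the threshold, and the median was -0.37. Next to it stood a GDSL-type lipase (10522), at -1.26 and -1.94 at 21 and 24 dpa. The other 4 members fall outside the rule for named genes. They were an enzyme of long chain fatty acid elongation (01869) with a difference of -0.51, a lipid transfer protein (12134), which moves lipids between membranes, with -0.23, a CER1-like protein (10650) with -0.10 and a beta-ketoacyl-CoA synthase (12309) with -0.03. In phenylpropanoid and flavonoid synthesis, flavanone 3-hydroxylase (10602) was at -1.73 and -1.69. An anthranilate N-hydroxycinnamoyl/benzoyltransferase (10567) went from 0.66 to 3.35, but it is in the dim class and above the buffer signal in 2 of 12 files.

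**Figure D5:**
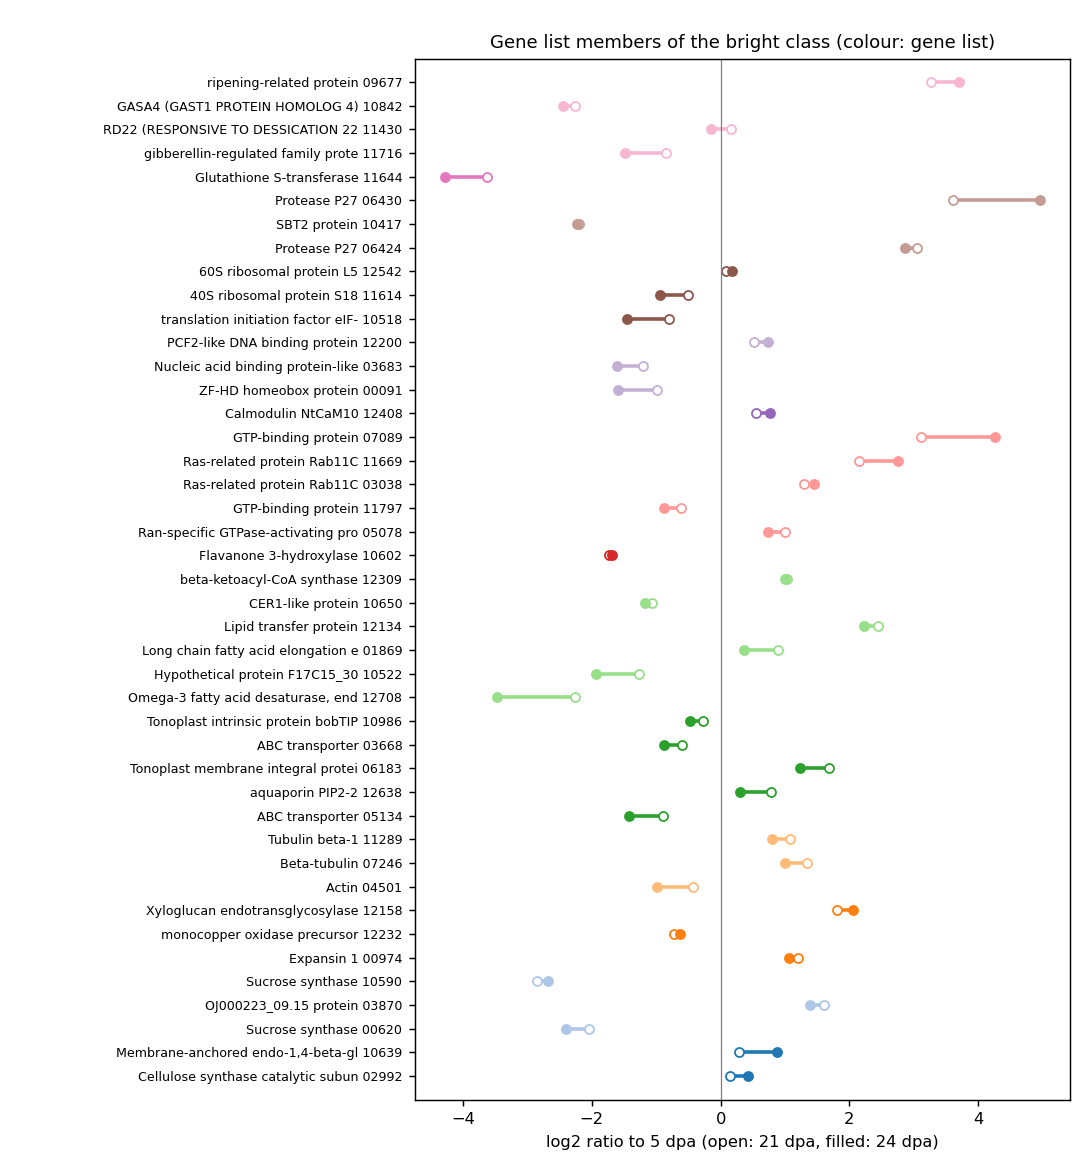
Log2 ratio to 5 dpa at 21 dpa (open circles) and 24 dpa (filled circles) for the members of the gene lists that are in the bright class, each with its probe number, coloured by list. Protease P27 06430, the GTP-binding protein 07089 and the omega-3 desaturase 12708 move by 1.36, 1.15 and -1.21, and the other members by less than 1.

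Signalling and traffic genes went different ways. Of 5 small GTPase probes, all bright, 1 was at least 2-fold higher (0.304% among all bright probes), and the median was 0.16. Beside the GTP-binding protein above, the Rab11C probes 11669 and 03038, for a GTPase of vesicle traffic, had differences of 0.60 and 0.16. A further GTP-binding protein (11797) and the Ran-specific GTPase-activating protein (05078) both had -0.26. In calcium signalling 0 of 3 changed at least 2-fold, with a median of -0.53. Calmodulin (12408), the main calcium sensor of the cytosol and the only bright member, was at 0.55 and 0.76, a difference of 0.21. The calcium-dependent protein kinases 04766 and 00016 had differences of -0.59 and -0.53. Both kinases are in the middle class and were above the buffer signal in 3 of the 4 late files.

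In transcription and chromatin 1 of 8 probes was at least 2-fold higher and 2 were lower, with a median of -0.39. All 3 were in the dim class, where 21.3% of probes were higher and 11.03% lower. The largest difference of all rows belonged to histone deacetylase 6 (03570), an enzyme that removes acetyl groups from histones, with 5.56, -4.93 and 5.63 at 17, 21 and 24 dpa. Its signal was above the buffer spots in 0 of 12 files. The ethylene-responsive RNA helicase (02353) went from -0.53 to -3.53 and lies in block row 11. Among bright probes, all chosen after their values were seen, a PCF2-like DNA binding protein (12200) had a difference of 0.22, a nucleic acid binding protein (03683) -0.42 and a ZF-HD homeobox protein (00091), which lies in block row 11, -0.60.

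For the ribosome and translation 0 of 3 probes changed at least 2-fold, and the median was -0.44. The 60S ribosomal protein L5 (12542) had a difference of 0.10, the 40S ribosomal protein S18 (11614) -0.44 and the initiation factor eIF-1A (10518), which helps to place the ribosome at the start codon, -0.65. In proteolysis 2 of 5 were higher and 1 was lower, against 7.76% and 5.68% of all rows, with a median of -0.04. The subtilase SBT2 (10417) was at -2.19 and -2.23. A serine carboxypeptidase (12737), in the dim class, went from 0.04 to 1.30, and GRO11 (00067), with a protease-associated domain, from 0.45 to -3.20. The last 2 lie in block row 11.

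Of 4 probes for redox, iron and respiration 1 was at least 2-fold higher, against 7.76% of all rows, a glutathione peroxidase (05938) of the dim class that was above the buffer signal in 0 of 12 files. Subunit II of cytochrome c oxidase (02212), of the mitochondrial respiratory chain, went from 3.43 to 4.23. Ferritin (10012), which stores iron, went from 3.66 to 3.22, and a glutathione S-transferase (11644) from -3.63 to -4.28. Among hormone-regulated and ripening genes 0 of 4 changed at least 2-fold, with a median of -0.25, and the ripening-related protein (09677) was at 3.27 and 3.71.

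The remaining large differences of described probes were in the dim and middle classes. On the higher side they were a WD-repeat protein (07368) with 5.04, RXW8 (06888) with 4.92, an unnamed Arabidopsis-like sequence (00099) with 4.31, a hypothetical protein similar to At3g07565 (02576) with 1.94 and an oxylase-like protein (00722) with 1.34. All 5 were in the dim class, with 0 to 3 of 12 files above the buffer signal. On the lower side a hypothetical protein similar to At3g17510 (03168) had -4.97, a peptidylprolyl isomerase (03386), which helps proteins to fold, -3.08, a cytoplasmic aspartate aminotransferase (12276) -2.30, a phosphatase-like protein (00143) -2.18 and a hypothetical protein similar to At5g14600 (01113) -1.43. Of these only the last was in the middle class. The WD-repeat protein, RXW8, 03168 and the isomerase lie in block rows 11 and 12. A dentin sialophosphoprotein-like sequence (00338) had -0.83.

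Among bright probes without a description, the pair that was lowest stood far from the rest. Probe 09897 had log2 ratios to 5 dpa of 0.44, 1.6, 2.16, 4.25, 1.72 and -4.11 from 8 to 24 dpa, a difference of -5.84. Probe 02589 had -0.01, 1.5, 1.99, 4.33, 1.95 and -3.41, a difference of -5.37. Their courses were alike at every stage, with a peak at 17 dpa and the lowest value at 24 dpa, and both were above the buffer signal in all 12 files. They lie in block rows 12 and 11. The next lower bright probe had a difference of -2.28.

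The bright probes that were highest without a description had a second entry that did not follow. For 17 probe numbers the table holds an entry without a contig or EST name, from 6 spots, beside the named entry, from 2 spots. The unnamed entry of 11688 went from -0.59 to 4.26, a difference of 4.85, while the named entry had 0.12. For 10825 the unnamed entry had 3.93 and the named one 0.16. Of the 17 pairs, 12 agreed within 0.5 on the log2 scale and 3 differed by more than 1, and the median gap was 0.21. The SD of the gap was 1.51 with all pairs and 0.60 without the 2 pairs above. Of the 12 higher bright probes 3 were such unnamed entries, those of 11688, 10825 and 10513. They belong to the 3 pairs that differed by more than 1, with 1.75 against -0.09 in the named entry for 10513. Without all unnamed entries the bright class held 9 higher and 64 lower probes.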

How the data were processed

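The authors hybridized labelled cDNA of TM1 fiber RNA to 2-colour arrays in a loop design that included dye swaps. For each stage they deposited 1 profile of log2 ratios against 5 dpa, fitted with LIMMA. Before the fit, the paper describes manual flagging, background subtraction, filters on weak or divergent spots and lowess normalization. Of the 11858 rows with values, 628 were nevertheless above the buffer signal in 0 of the 4 late files. Pooling over several arrays hides the spread, and weak spots make ratios of low precision. The deposited scanner files give each spot's mean intensity and local background, not normalized.

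Here the 21 dpa value was subtracted from the 24 dpa value without further normalization (Python 3.11.15, pandas, numpy and scipy). Flagged spots were left out, the background was subtracted, and signals under 1 were set to 1 before log2. The buffer signal of a file was the median of its buffer spots plus 3 scaled median absolute deviations. Of 12238 GA_ rows, 380 had no values. No depth applies to arrays, and their number limits the precision. Members and gene lists were chosen with earlier results of these data known. Named were described probes with the 10 largest differences in each direction, the 5 largest in the bright class, and every described member of lists of 5 or fewer. The counting code was tested on simulated data.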

Additional observations from a re-analysis of the deposited data

Results flagged for a closer look

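Signal outside the compared rows was met in 4 places. The control features GhCesA-1, FbL2A and GhCesA-2, named after fiber genes and left out of all counts, were higher at 24 than at 21 dpa by 3.49, 2.95 and 1.35 on the log2 scale. Of the 380 cotton probes without deposited values, 1 had a signal above the buffer spots in all 4 files of the 21 and 24 dpa samples.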

How the results depend on the processing

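Thresholds and filters moved the counts most. At 1.5-fold, 1556 probes were higher and 1653 lower, and at 3-fold 505 and 228. The corresponding counts in the bright class were 60 and 323, and 5 and 10. Above the buffer median plus 3 scaled deviations in the 4 late files 68 were higher and 61 lower, in all 12 files 24 and 39, and above the buffer mean plus 3 SD 2 and 2, of 584 rows. Scaling the 24 dpa profile to the SD of the 21 dpa profile left 415 lower probes and 21 lower bright ones, and quantile matching left 31 lower bright ones. Among named 2-fold differences the scaling over all rows turned P27 to -0.0066, the GTP-binding protein to -0.028 and the NPH3 protein to 0.066. Smaller named differences turned sign too, among them glutathione S-transferase (11644) from -0.65 to 0.53. Cytochrome c oxidase subunit II (02212) went from 0.80 to -0.37 and the ripening-related protein (09677) from 0.44 to -0.59. Others kept their sign, such as the beta-galactosidase 04269 with 0.69. Scaling within each signal class, added after seeing the data, left 25 lower bright probes and turned the sign of 0 named 2-fold differences. It did turn the smaller differences of 11644, 02212 and 09677, to 0.20, -0.26 and -0.30. Both scalings kept 12 of the 20 named 2-fold differences. The brightest 10% held 4 higher and 10 lower probes, and the brightest 50% 29 and 126. Of the list members 6 were higher and 4 lower, with 2 and 1 in the bright class, and 11 and 10 at 1.5-fold. The SD of paired entries was 0.60 without the 2 most divergent pairs, and 0.31 as a scaled deviation.

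Block rows were examined after seeing the data. Block rows 1 to 10 alone gave 400 lower probes, and 7 higher and 36 lower bright ones. Signal classes taken within block rows gave 19 higher bright probes. The causes were not tested. Centring moved no count by over 1.5 times. Lower probes outnumbered higher ones in the bright class under every setting tried, but not among probes above the buffer signal in the 4 late files. That last filter can remove probes that fell. No paired analysis was possible because each stage has 1 profile.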
